A study of Homo sapiens with 21 samples.

Results

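The response to NOSCA was measured by comparing 6 NOSCA-treated arrays with 6 vehicle (DMSO) arrays, out of 21 PrimeView arrays of SH-SY5Y cells. The 6 arrays of each treatment were 3 of wild-type (WT) cells and 3 of APP-V717F mutated cells, called APP cells here. The arrays were assigned by the treatment and genotype in their labels. The comparison asked for a common effect, the NOSCA minus DMSO difference shared by both genotypes.

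SH-SY5Y is a human neuroblastoma line that is used as a model of neurons. All groups had first been differentiated with retinoic acid (10 µM) and the neurotrophin BDNF (50 ng/mL), and then spent 72 h with a compound or with 0.1% DMSO. The groups used were WT and APP cells with NOSCA, WT and APP cells with AG494, WT cells with PALBO, and WT and APP cells with DMSO, with 3 arrays each. The study describes independent experiments. By the numbers in their titles the arrays form 3 runs, each with 1 array of every group, and the labels do not say whether a run is an experiment. NOSCA and PALBO are written as in the labels, which give no dose of any compound. How the mutation was introduced, and whether the APP line is 1 clone, is not given in the sources used here.

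APP encodes the amyloid precursor protein, from which secretases cut the amyloid peptide, and changes at the mutated residue are known from familial Alzheimer's disease. The gene groups that carry the description below have well known roles. p53 is a transcription factor that is stabilised by cell stress and switches on genes for cell cycle arrest and repair, among them CDKN1A and MDM2. Genes of mitosis are transcribed late in the cell cycle and are kept silent in resting cells by the DREAM complex, which binds their promoters. Genes of cholesterol and fatty acid synthesis are driven by the SREBP transcription factors, which are activated when sterols are low.

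Most markers of the cell type were at high levels. The 11 measured markers of noradrenergic neuroblastoma (among them PHOX2A, HAND2, DBH and STMN2) had mean log2 intensities of 8.35 to 13.16. Of these, 10 lay above the median gene, and TH, the lowest, stood at percentile 49.2. Their list level was 11.95 to 12.11 on NOSCA arrays and 11.95 to 12.14 on DMSO arrays. The 6 immune markers had means of 5.01 to 8.07, and their list level was 6.29 to 6.38 on NOSCA arrays against 6.24 to 6.34 on DMSO arrays. Means were 5.34 to 8.53 for 4 glial, 5.59 to 7.3 for 4 epithelial and 5.6 to 7.51 for 4 endothelial markers. Of these lists only the glial one had a member with an unadjusted p under 0.05, ERBB3 at -0.14. Of 4 fibroblast markers, whose means were 8.24 to 13.3, 2 had an unadjusted p under 0.05 for NOSCA, DCN at 0.36 and COL1A1 at -0.23. The part of fibroblast markers in the results was not tested. Array medians of the 12 arrays ran from 7.877 to 8.03. Precision is limited by the number of arrays, and p-values measure the spread between these cultures.

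No gene passed the test for a common effect. Under limma with genotype and run as covariates, 0 of 18132 genes (0%) had an adjusted p under 0.05, and the lowest adjusted p was 0.053. At an unadjusted p under 0.05 there were 2037 genes (11.2%), 1058 of them higher with NOSCA (5.83%) and 979 lower (5.40%). The estimates were small: the median absolute difference was 0.055 log2, with a median SE of 0.061. For 18002 genes (99.3%) the 95% interval lay within 1.5-fold either way, so that the data bound their common change to that size. Only 7 genes had an estimate of at least 1.5-fold.

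With all 21 arrays in the fit, 57 genes passed (0.314%), 24 higher and 33 lower. This fit adds the spread of the other 3 groups to the estimate of error. It also gives each group its own level, so that a response differing between the genotypes no longer counts as error. MT1F passed there (limma adjusted p 0.033), with differences of 1.51 in WT cells and 0.06 in APP cells. The common effect is therefore described by its estimates, and the words higher and lower below stand for values, not for calls.

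The 10 genes with the lowest p had 6 of 6 within-run differences of one sign. Such agreement was seen in 737 genes (4.06%) above 0 and in 643 genes (3.55%) below 0. Each of the 10 passed with all 21 arrays in the fit, at adjusted p from limma of 0.0013 to 0.037. They were chosen by p on the same arrays. Agreement of sign, arrays that do not overlap and passing in the 21-array fit are therefore no separate support. Of the 57 genes that passed in that fit, 56 differed from DMSO in the same direction with AG494, and 46 were called for AG494 in that direction. NOSCA minus AG494 was called for 9 of the 57. Both compounds are set against the same DMSO arrays, and the part of these arrays in the shared direction was not tested.

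SLC16A9, a member of the monocarboxylate transporter family, had 10.16, 10.26 and 9.96 log2 units in WT cells with NOSCA, and 10.31, 10.10 and 10.17 in APP cells with NOSCA. It had 9.75, 9.73 and 9.42 in WT cells with DMSO, and 9.80, 9.86 and 9.58 in APP cells with DMSO. All 6 NOSCA arrays lay above all 6 DMSO arrays. Its common difference was 0.47 ± 0.06 log2 (SE, 6 arrays each), with a limma adjusted p of 0.053 and both probe sets higher.

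TMEM255A had 7.09, 7.27 and 7.54 in WT cells with NOSCA and 6.92, 6.86 and 6.74 in APP cells with NOSCA, against 7.87, 8.11 and 8.34 in WT cells with DMSO and 7.15, 7.23 and 7.67 in APP cells with DMSO. Within each genotype every NOSCA array lay below every DMSO array. The common difference was -0.66 ± 0.09 log2 (SE), the third largest in size of all genes, with a limma adjusted p of 0.08.

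CD9, a tetraspanin of the plasma membrane, had 10.15, 10.44 and 10.32 in WT cells with NOSCA and 9.22, 9.17 and 8.99 in APP cells with NOSCA. The values with DMSO were 11.26, 11.05 and 10.72 in WT cells and 9.60, 9.57 and 9.50 in APP cells. The groups did not overlap within either genotype, and the larger distance was between the genotypes. Its common difference was -0.57 ± 0.08 (SE, limma adjusted p 0.08), and 8 of its 9 probe sets had this sign.

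SLC6A6, the taurine transporter, had 9.62, 9.61 and 9.60 in WT cells with NOSCA and 9.26, 9.42 and 9.43 in APP cells with NOSCA. With DMSO it had 9.98, 9.93 and 10.10 in WT cells and 9.54, 9.92 and 9.83 in APP cells. No NOSCA array reached a DMSO array of its own genotype, and the common difference was -0.39 ± 0.06 (SE, limma adjusted p 0.08) with 5 of 5 probe sets below 0.

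NEIL3, a DNA glycosylase of base excision repair, had 9.17, 8.71 and 9.01 in WT cells with NOSCA and 8.54, 8.54 and 8.41 in APP cells with NOSCA. Its DMSO values were 9.61, 9.34 and 9.34 in WT cells and 8.96, 8.75 and 8.99 in APP cells, above the NOSCA values in both genotypes. The common difference was -0.44 ± 0.06 (SE, limma adjusted p 0.08).

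Of the remaining genes in this set, 3 were higher with NOSCA. MMP11, a matrix metalloproteinase, differed by 0.43 ± 0.06, AK5, an adenylate kinase of the brain, by 0.51 ± 0.08, and MSRB3, a methionine sulfoxide reductase, by 0.46 ± 0.07 log2 (SE). The limma adjusted p was 0.08, 0.08 and 0.09. MSRB3 was measured by 4 probe sets, of which 3 had this sign, and AK5 by 3 probe sets with differences from 0.00 to 0.51. FAM111B, a serine protease, differed by -0.30 ± 0.05 (SE, limma adjusted p 0.09). DHCR7, the reductase that completes cholesterol synthesis, had 9.43, 9.34 and 9.54 in WT cells and 9.42, 9.64 and 9.60 in APP cells with NOSCA, against 9.71, 9.73 and 9.85 in WT cells and 9.69, 9.87 and 9.98 in APP cells with DMSO. It was lower by -0.31 ± 0.05 (SE, limma adjusted p 0.098), and rested on 1 probe set.

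**Figure D1:**
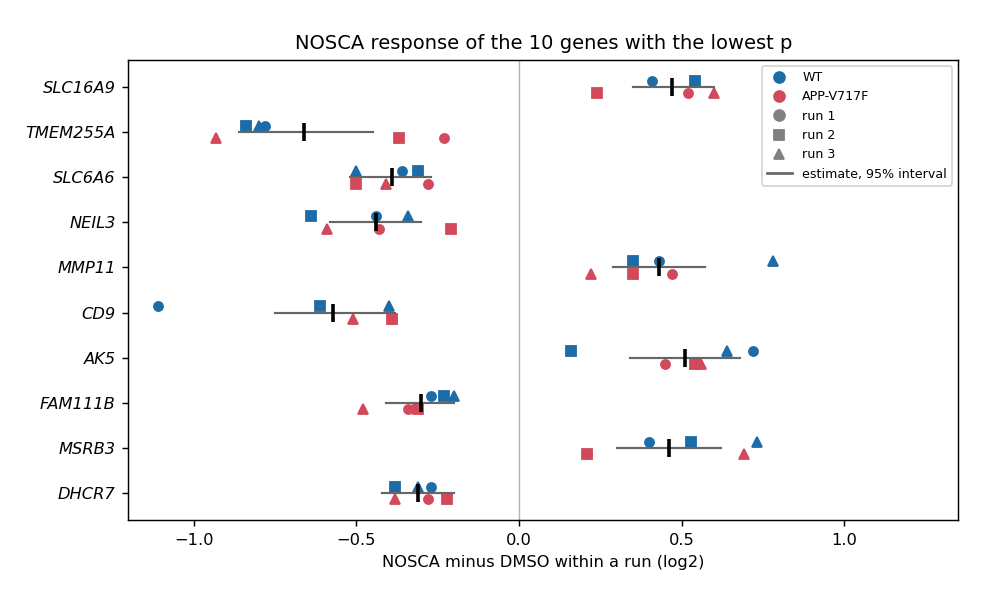
NOSCA minus DMSO within each run (x axis, log2) for the 10 genes with the lowest p of the common effect; blue points are WT cells, red points APP cells, marker shapes the 3 runs, and the black tick and grey line the limma estimate and its 95% interval. All 6 points of each gene lie on 1 side of 0, and SLC16A9, at 0.47, has the lowest p.

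The 7 genes with an estimate of at least 1.5-fold include TMEM255A and 6 others. MT1F, a zinc-binding metallothionein, had the largest at 0.79 ± 0.25 log2 (SE, limma adjusted p 0.29). It had 2 probe sets, with differences of 0.79 and 0.07. GDF15, a stress-induced cytokine and p53 target, had 10.39, 11.08 and 9.54 in WT cells with NOSCA and 9.26, 8.96 and 8.82 in APP cells with NOSCA, against 9.60, 10.11 and 8.34 in WT cells and 8.62, 8.69 and 8.56 in APP cells with DMSO. It was higher with NOSCA in each run, by 0.69 ± 0.21 (SE, limma adjusted p 0.29), while its WT arrays overlapped between the treatments. ACTA2, smooth muscle actin, stood at 0.65 ± 0.15 and CSTF2T, a paralog of a polyadenylation factor, at 0.60 ± 0.13 (SE, limma adjusted p 0.21 and 0.17). Only 1 of 3 ACTA2 probe sets and 1 of 2 CSTF2T probe sets had this sign. AQP1, a water channel, at -0.65 ± 0.32, and ALDOC, a glycolytic aldolase, at -0.59 ± 0.25 (SE, limma adjusted p 0.48 and 0.40), rested on WT cells, with differences of -1.31 and -1.09 there and of 0.02 and -0.09 in APP cells.

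Genes that p53 switches on lay above 0 as a group. Of 26 measured p53 targets, 0 passed the test, 25 had an estimate above 0, and 16 were higher at an unadjusted p under 0.05 against 0 lower. Over all genes tested, 5.83% were higher at that level. The median of the list was 0.179 log2, beside 0.004 over all genes, and POLH was the member below 0. The list median within a run was 0.010, 0.188 and 0.338 in WT cells and 0.250, 0.214 and 0.149 in APP cells, so that the first run of WT cells was near 0. For 9 members all 6 within-run differences were above 0. AG494 minus DMSO, which shares the WT DMSO arrays, also had its highest WT median of this list in the third run, with -0.319, -0.075 and 0.443. The part of the DMSO arrays in these run medians was not tested.

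CDKN1A, the inhibitor of cyclin-dependent kinases known as p21, had 13.10, 13.17 and 12.90 in WT cells with NOSCA and 13.34, 13.18 and 13.13 in APP cells with NOSCA. It had 12.95, 12.97 and 12.25 in WT cells with DMSO and 13.04, 12.94 and 12.85 in APP cells with DMSO. The APP arrays did not overlap and the WT arrays did, at a common difference of 0.30 ± 0.08 (SE, limma adjusted p 0.24). MDM2, the ubiquitin ligase that degrades p53, differed by 0.20 ± 0.06. TP53I3, an oxidoreductase, differed by 0.37 ± 0.09, EDA2R, a receptor of the tumour necrosis factor family, by 0.46 ± 0.10, and PHLDA3, an inhibitor of AKT, by 0.38 ± 0.09 (SE). The limma adjusted p of these 4 genes ran from 0.21 to 0.26. GDF15, described above, belongs to the same list.

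All measured genes of mitosis had a common estimate below 0. Of 39 measured members, 0 passed the test, 39 had an estimate below 0, and 25 were lower at an unadjusted p under 0.05 (64.1%), beside 5.40% of all genes. In WT cells 35 members lay below 0 and 4 above, and 10 were lower at an unadjusted p under 0.05. In APP cells 39 lay below 0, and 24 were lower at that level. Over all 18132 genes 978 were lower at that level in WT cells and 930 in APP cells. The list median of the common effect was -0.137 log2. Within runs it was -0.155, -0.052 and -0.095 in WT cells and -0.132, -0.118 and -0.254 in APP cells, and in 21 members all 6 within-run differences were below 0. In RNA of whole cultures, fewer dividing cells and less mitotic RNA per cell cannot be told apart.

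KIF20A, a kinesin of cytokinesis, had 10.82, 10.83 and 10.78 in WT cells with NOSCA and 10.40, 10.55 and 10.40 in APP cells with NOSCA, against 10.99, 11.00 and 10.93 in WT cells and 10.66, 10.70 and 10.72 in APP cells with DMSO. No arrays overlapped within a genotype, and the difference was -0.20 ± 0.04 (SE, limma adjusted p 0.17). CENPE, the kinetochore kinesin, differed by -0.26 ± 0.06, and KIF14, another kinesin of cytokinesis, by -0.21 ± 0.05 (SE, limma adjusted p 0.17 and 0.22). CDC25C and TTK, a phosphatase and a kinase of mitotic entry and the spindle checkpoint, stood at -0.23 ± 0.06 and -0.22 ± 0.06 (SE, limma adjusted p 0.22 and 0.24).

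The promoters of mitotic genes are known for the cell cycle genes homology region (CHR), to which DREAM binds, and for CCAAT boxes bound by NF-Y. Promoters of the 3 members with the lowest p are shown, to give these 2 elements in their context; CENPE has no CCAAT box in its window. Each is the 250 bases before the RefSeq start on GRCh38.p14, on the strand of the gene, with CHR elements (TTTGAA or TTTAAA) and CCAAT boxes (ATTGG on the opposite strand) in capitals.
KIF20A, chr5:138178862-138179111, plus strand: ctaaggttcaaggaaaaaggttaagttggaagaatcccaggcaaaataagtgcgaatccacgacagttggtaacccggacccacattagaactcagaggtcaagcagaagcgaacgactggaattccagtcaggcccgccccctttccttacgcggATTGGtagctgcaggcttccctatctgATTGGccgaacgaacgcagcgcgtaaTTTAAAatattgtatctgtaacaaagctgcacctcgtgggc
CENPE, chr4:103198344-103198593, minus strand: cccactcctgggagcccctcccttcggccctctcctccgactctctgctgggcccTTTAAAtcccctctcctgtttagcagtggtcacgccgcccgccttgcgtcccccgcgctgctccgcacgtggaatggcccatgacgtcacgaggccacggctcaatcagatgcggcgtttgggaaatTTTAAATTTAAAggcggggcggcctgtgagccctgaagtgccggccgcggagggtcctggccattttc
KIF14, chr1:200620752-200621001, minus strand: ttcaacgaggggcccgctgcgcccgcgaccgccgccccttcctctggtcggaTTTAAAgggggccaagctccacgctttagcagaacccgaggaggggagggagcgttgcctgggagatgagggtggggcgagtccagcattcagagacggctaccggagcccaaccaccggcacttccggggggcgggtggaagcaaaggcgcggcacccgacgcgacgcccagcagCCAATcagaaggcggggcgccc

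Searched on both strands, a CHR element stood in 25 of 33 mitotic promoters (75.8%) and in 17.7% of the 14425 promoters of measured genes. The form TTTAAA reads the same on both strands. A CCAAT box stood in 27 of 33 mitotic promoters (81.8%) and in 34.6% of all. It also stood in 45 of 50 histone promoters and in 16 of 18 promoters of cholesterol genes. Matches describe these windows and are not binding sites.

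Genes of DNA replication and S phase, whose promoters are driven by E2F, were less uniform. Of 41 members, 0 passed, 36 were below 0, and 10 were lower at an unadjusted p under 0.05 (24.4%) against 0 higher. The list median was -0.070, with -0.006 in WT cells and -0.140 in APP cells. POLA2, the regulatory subunit of DNA polymerase alpha, had the lowest p of the list at -0.22 ± 0.04 (SE, limma adjusted p 0.17). Its 2 probe sets had differences of -0.22 and 0. The replication-dependent histone genes, which are transcribed in S phase, had a median of -0.061 over 55 members, with 51 below 0, 0 passing, 6 lower at an unadjusted p under 0.05 (10.9%) and 1 higher. H2BC17 was lower by -0.27 ± 0.05 and H2BC21 higher by 0.47 ± 0.12 (SE, limma adjusted p 0.17 and 0.24), with 1 of 3 H2BC21 probe sets above 0 and a single probe set for H2BC17.

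Most genes of cholesterol synthesis had an estimate below 0. Of 20 genes of cholesterol synthesis and uptake 0 passed and 19 were below 0, with 6 lower at an unadjusted p under 0.05 (30%) and 1 higher, and a median of -0.097. The run medians ran from -0.104 to -0.036. INSIG1, the sterol sensor that retains SREBP in the endoplasmic reticulum, had 11.22, 10.89 and 10.93 in WT cells with NOSCA and 11.21, 11.12 and 11.03 in APP cells with NOSCA. It had 11.58, 11.19 and 11.18 in WT cells with DMSO and 11.47, 11.34 and 11.52 in APP cells with DMSO. The APP arrays did not overlap, and in WT cells the first NOSCA array lay above 2 DMSO arrays, at a difference of -0.32 ± 0.06 (SE, limma adjusted p 0.17). HMGCS1 and IDI1, enzymes of the mevalonate pathway, stood at -0.24 ± 0.06 and -0.21 ± 0.05 (SE, limma adjusted p 0.22 and 0.23). DHCR7, given above, is in this list too.

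Of 35 genes of fatty acid and triglyceride metabolism 0 passed and 26 were below 0 and 9 above, with 8 lower at an unadjusted p under 0.05 (22.9%), 1 higher and a median of -0.051. SREBF1, which encodes an SREBP, was lower by -0.29 ± 0.07. FASN, the fatty acid synthase, stood at -0.22 ± 0.06, SCD, a desaturase, at -0.14 ± 0.04 and FADS1, another desaturase, at -0.15 ± 0.04 (SE). Their limma adjusted p ran from 0.22 to 0.26, and for each all 6 within-run differences were below 0. DGAT2, which makes triglycerides, was the member higher at an unadjusted p under 0.05, by 0.46 ± 0.12 (SE, limma adjusted p 0.24).

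**Figure D2:**
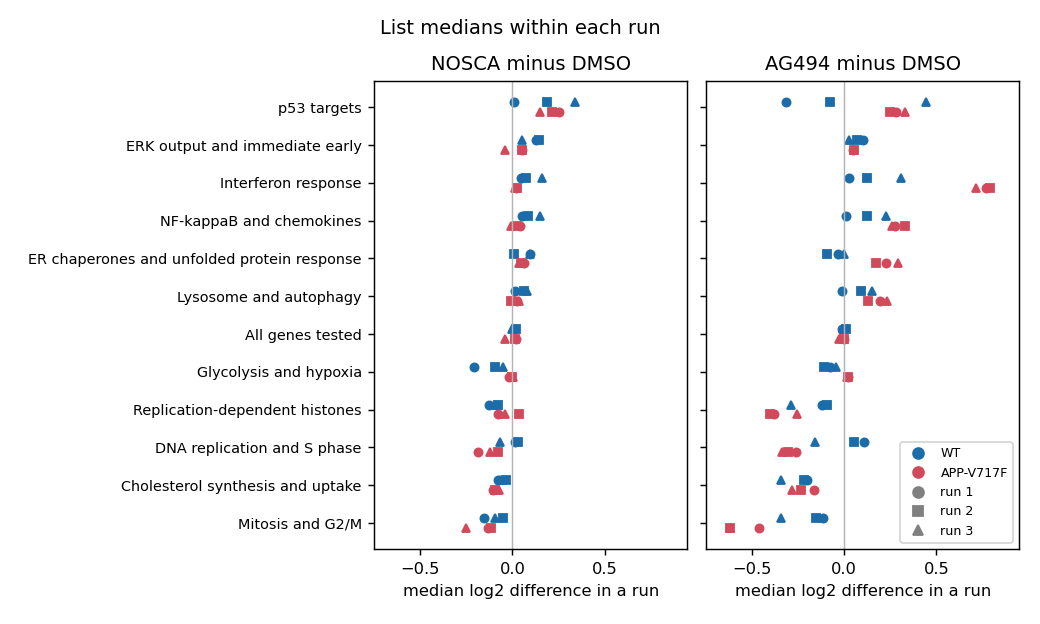
Median log2 difference of each gene list within a run (x axis) for NOSCA minus DMSO (left) and AG494 minus DMSO (right), which share the DMSO arrays; blue is WT, red APP cells, and marker shapes are runs. The NOSCA medians of p53 targets lie at 0.010 to 0.338 and those of mitosis at -0.254 to -0.052, while the interferon list lies at 0.016 to 0.158 with NOSCA.

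No list had a called member for the common effect. Genes of ERK output, transcribed after growth factor signalling, had a median of 0.084 over 37 members, with 7 higher at an unadjusted p under 0.05 (18.9%) and 1 lower. EPHA2, an ephrin receptor, stood at 0.29 ± 0.06 and ETV4, a transcription factor downstream of ERK, at 0.20 ± 0.05 (SE, limma adjusted p 0.18 and 0.24). Chaperones of the endoplasmic reticulum had 20 of 24 members above 0 and a median of 0.044, with 2 higher at an unadjusted p under 0.05. Lysosome and autophagy genes had a median of 0.025, with 6 of 33 higher at an unadjusted p under 0.05 (18.2%) and 1 lower. The interferon response list had a median of 0.034 over 35 genes, with 2 higher at an unadjusted p under 0.05 (5.71%) and 0 lower, close to the share over all genes. Cytosolic ribosomal proteins and respiratory chain subunits had medians of -0.018 and 0.005, and 0 of their 41 and 36 members had an unadjusted p under 0.05.

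Genes tied to amyloid and to Alzheimer's disease had medians close to that of all genes. The median was 0.012 over 23 genes of amyloid precursor processing, with 1 higher and 2 lower at an unadjusted p under 0.05, and -0.007 over 26 Alzheimer risk genes, with 1 higher and 2 lower. PSEN2, a catalytic subunit of gamma-secretase, stood at 0.17 ± 0.05 and APBB2, an adaptor that binds the precursor protein, at -0.22 ± 0.06 (SE, limma adjusted p 0.27 and 0.24). The APP transcript had 12.48, 12.50 and 12.52 in WT cells with NOSCA and 12.36, 12.52 and 12.49 in APP cells with NOSCA, against 12.49, 12.61 and 12.61 in WT cells and 12.26, 12.37 and 12.25 in APP cells with DMSO. Within each genotype the NOSCA and DMSO arrays overlapped. With DMSO every APP array lay below every WT array, and with NOSCA the genotypes overlapped. The common difference was 0.04 ± 0.05 log2 (SE, limma adjusted p 0.80), with a 95% interval of -0.07 to 0.16. It combines values that were lower with NOSCA in each WT run and higher in each APP run. The 13 probe sets of APP had common differences from 0.00 to 0.22, and 12 of them had this sign.

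SLC18A2, the vesicular monoamine transporter, had 9.61, 8.99 and 7.76 in WT cells with NOSCA and 10.70, 9.91 and 9.80 in APP cells with NOSCA, against 9.11, 8.24 and 7.25 in WT cells and 10.06, 9.55 and 9.21 in APP cells with DMSO. It differed more between runs than between treatments, and was higher with NOSCA in every run, by 0.56 ± 0.14 (SE, limma adjusted p 0.24). It belongs to a list of 27 noradrenergic neuroblast genes whose median was 0.004.

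The response was next measured in each genotype alone, with no array shared between the 2 comparisons. In WT cells 1 gene passed (0.00552%) and 2129 (11.7%) had an unadjusted p under 0.05, 1151 of them higher (6.35%) and 978 lower (5.39%). In APP cells 0 genes passed (0%) and 1771 (9.77%) had an unadjusted p under 0.05, with a lowest adjusted p of 0.094. Across genes, the WT and APP responses correlated at 0.10 by both Pearson's r and Spearman's rho over 18132 genes, which are not independent replicates. The 100 genes with the lowest p in WT cells had a median absolute difference of 0.42 there, and a median of 0.041 in APP cells when signed by their WT direction. Of these 55 kept their sign in APP cells, where 52.8% of all genes had the same sign in both genotypes. At an unadjusted p under 0.05 in APP cells, 17 of them had the same direction and 13 the opposite. The 100 genes with the lowest p in APP cells had a median of 0.40 there and of 0.032 in WT cells, and 64 kept their sign. At an unadjusted p under 0.05 in WT cells, 19 of these 100 genes had the same direction and 5 the opposite.

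**Figure D3:**
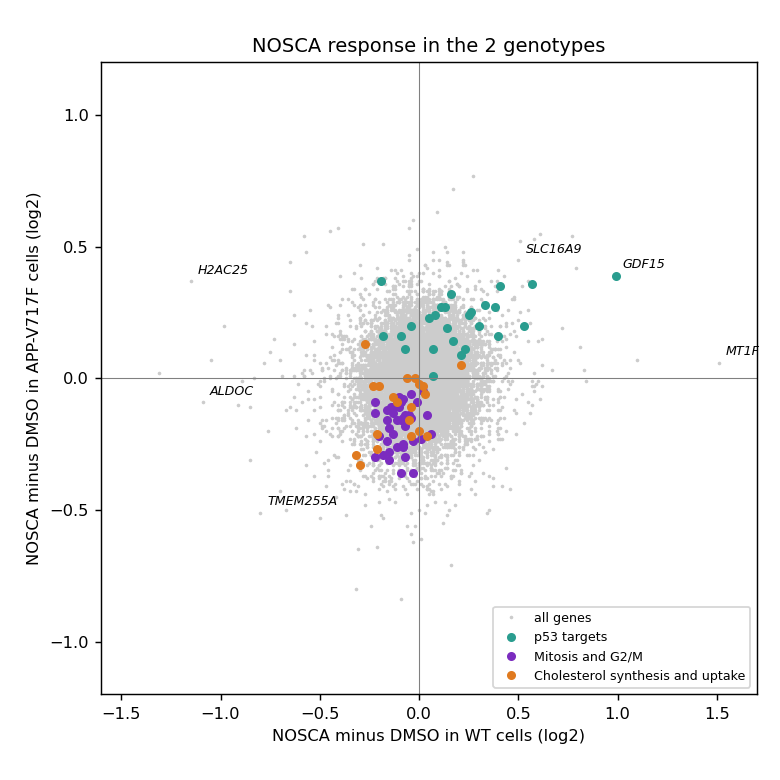
NOSCA minus DMSO in WT cells (x axis, log2) and in APP cells (y axis, log2) for 18132 genes in grey, with p53 targets in green, mitotic genes in purple and cholesterol genes in orange. All genes scatter around 0 with r of 0.10, and 25 of 26 p53 targets have a common estimate above 0 and 39 of 39 mitotic genes one below 0.

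H2AC25, a histone H2A gene, was the gene that fell in WT cells. It had 9.69, 9.84 and 9.96 in WT cells with NOSCA, against 10.84, 10.69 and 11.42 in WT cells with DMSO, a difference of -1.15 ± 0.12 log2 (SE, limma adjusted p 0.048). In APP cells it had 10.01, 9.99 and 10.62 with NOSCA, against 9.81, 9.81 and 9.89 with DMSO, a difference of 0.37 ± 0.12 (SE, limma adjusted p 0.39). The arrays did not overlap in either genotype, and the direction was opposite. WT cells with AG494 had 9.55, 9.71 and 9.56, and WT cells with PALBO had 9.47, 9.35 and 9.27, so that the WT DMSO arrays stood above every other group. The call was lost, with 0 genes called in WT cells, without the run as a replicate block and when any 1 WT NOSCA array or the first or second WT DMSO array was left out.

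Fitted on the 12 NOSCA and DMSO arrays, no gene passed the test of a difference between the genotypes in the NOSCA response. That test called 0 of 18132 genes (0%), with 1720 (9.49%) at an unadjusted p under 0.05 and a lowest adjusted p of 0.089, for H2AC25 at 1.52 ± 0.17 log2 (APP response minus WT response, SE). H2AC20, another histone H2A gene, followed at 0.81 ± 0.12. It had 12.75, 13.12 and 13.19 in WT cells with NOSCA against 13.55, 13.54 and 13.64 with DMSO, and 13.42, 13.35 and 13.55 in APP cells with NOSCA against 13.09, 13.24 and 13.23 with DMSO. STK32A, a kinase, stood at 0.70 ± 0.10, NDUFAB1, the mitochondrial acyl carrier protein, at 0.62 ± 0.09 and ZNF620, a zinc finger protein, at -0.51 ± 0.08 (SE). The limma adjusted p of these 4 genes was 0.18. With all 21 arrays in the fit H2AC25 and H2AC20 passed this test (limma adjusted p 0.011 and 0.025).

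**Figure D4:**
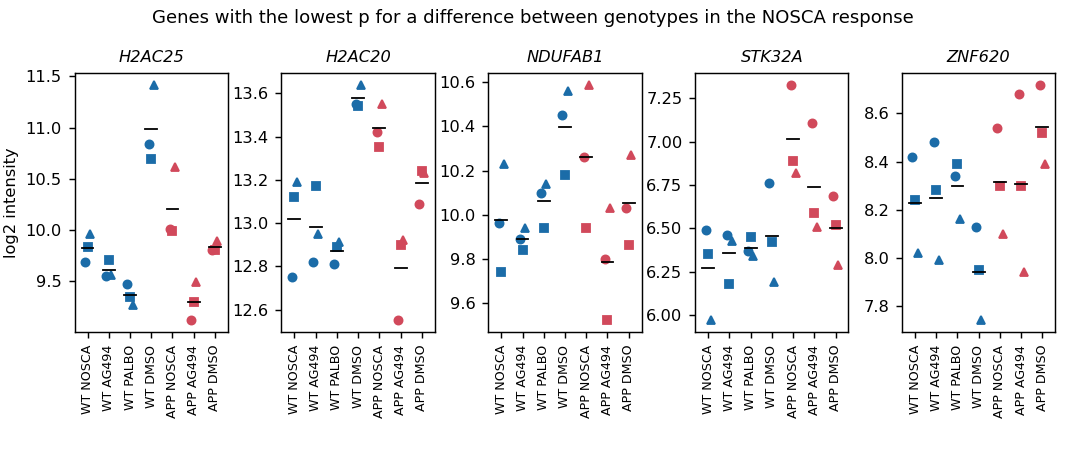
Log2 intensity (y axis) of the 5 genes with the lowest p for a difference between genotypes in the NOSCA response, by group; points are arrays with shapes for the 3 runs, bars are group means, blue is WT and red APP cells. H2AC25 lies at 9.69 to 9.96 in WT cells with NOSCA and at 10.69 to 11.42 in WT cells with DMSO.

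Metallothioneins and zinc transporters had a median of 0.064 in WT cells and of -0.020 in APP cells over 27 genes, with 0 called in either. In WT cells 6 were higher and 1 was lower at an unadjusted p under 0.05. MT1F, SLC30A1 and SLC39A10 were chosen after their values were seen. SLC39A10, a zinc importer, lay below 0, at -0.49 ± 0.13 in WT cells and -0.16 ± 0.13 in APP cells (SE, limma adjusted p 0.22 and 0.74). MT1F had 9.12, 8.81 and 9.82 in WT cells with NOSCA against 7.31, 7.38 and 8.53 with DMSO, and 10.07, 10.14 and 10.27 in APP cells with NOSCA against 10.11, 9.94 and 10.25 with DMSO. The NOSCA difference was 1.51 ± 0.20 in WT cells (SE, limma adjusted p 0.066) and 0.06 ± 0.20 in APP cells (SE, limma adjusted p 0.95). SLC30A1, the zinc exporter of the plasma membrane, had 9.83, 9.70 and 9.87 in WT cells with NOSCA, against 9.27, 8.83 and 8.78 in WT cells with DMSO. Its difference was 0.84 ± 0.10 in WT cells and -0.01 ± 0.10 in APP cells (SE, limma adjusted p 0.064 and 0.99). For both genes the WT DMSO array was the lowest WT array of every run. WT cells with PALBO had 9.97, 10.00 and 10.55 for MT1F and 9.83, 10.00 and 9.90 for SLC30A1. The difference between genotypes had a limma adjusted p of 0.25 for MT1F and 0.18 for SLC30A1. For MT1F the APP response minus the WT response was -1.45 by 1 probe set and -0.18 by the other.

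NOSCA was then set directly against AG494, which inhibits the kinase of the EGF receptor and had also been given to both genotypes. The doses are not in the labels, so that values are compared at unknown doses. In an 18-array fit, NOSCA minus AG494 over both genotypes called 884 genes (4.88%), 433 higher with NOSCA (2.39%) and 451 lower (2.49%), of which 53 differed by at least 1.5-fold. In WT cells alone 4 genes passed (0.0221%), and in APP cells alone 927 (5.11%). The difference between the genotypes passed for 21 genes (0.116%). This split was chosen after the data had been seen. The pooled count was 208 without the run as a replicate block and 29 without the second run.

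NPPC, which encodes C-type natriuretic peptide, had 8.72, 8.93 and 8.74 in APP cells with NOSCA, 7.24, 7.16 and 7.08 with AG494 and 8.32, 8.44 and 8.47 with DMSO. In WT cells it had 7.25, 7.42 and 7.25 with NOSCA, 6.96, 7.11 and 7.07 with AG494 and 7.28, 7.33 and 7.02 with DMSO. NOSCA exceeded AG494 by 1.64 ± 0.08 in APP cells and by 0.26 ± 0.08 in WT cells (SE, limma adjusted p 3.9e-08 and 0.32), and the difference between genotypes was 1.37 ± 0.11 (SE, limma adjusted p 5e-05). EBF3, a transcription factor, had 9.41, 9.74 and 9.66 in APP cells with NOSCA, 7.88, 7.88 and 8.17 with AG494, and 9.72, 10.02 and 10.16 with DMSO. In WT cells it had 7.72 to 7.93 with NOSCA and 7.64, 7.55 and 7.68 with AG494. NOSCA was above AG494 by 1.62 ± 0.10 in APP cells and by 0.22 ± 0.10 in WT cells (SE), and the difference between genotypes was 1.40 ± 0.13 (SE, limma adjusted p 0.00039).

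GPNMB, a membrane glycoprotein found in lysosomes, was lower with NOSCA than with AG494 in both genotypes. It had 5.65, 5.49 and 5.49 in WT cells with NOSCA against 6.82, 7.16 and 6.63 with AG494, and 5.81, 5.49 and 5.61 in APP cells with NOSCA against 6.99, 6.81 and 7.16 with AG494. The arrays of the 2 compounds did not overlap, and the common NOSCA minus DMSO difference was 0.08 ± 0.06 log2 (SE), with an interval of -0.05 to 0.21. The difference was -1.33 ± 0.13 in WT cells and -1.36 ± 0.13 in APP cells (SE, limma adjusted p 0.001 and 7.1e-05). DKK2, a modulator of Wnt signalling, was lower by -0.47 ± 0.06 in WT cells and by -0.72 ± 0.06 in APP cells (SE, limma adjusted p 0.017 and 3.9e-05). C2CD2 was lower by -0.36 ± 0.05 and -0.48 ± 0.05 (SE, limma adjusted p 0.021 and 0.00013). Over both genotypes 2 of 3 C2CD2 probe sets had this sign, with differences from -0.42 to 0.07. CCL2, a chemokine that attracts monocytes, was the other gene that passed in WT cells, at -1.77 ± 0.26, and stood at -1.45 ± 0.26 in APP cells (SE, limma adjusted p 0.027 and 0.0043).

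**Figure D5:**
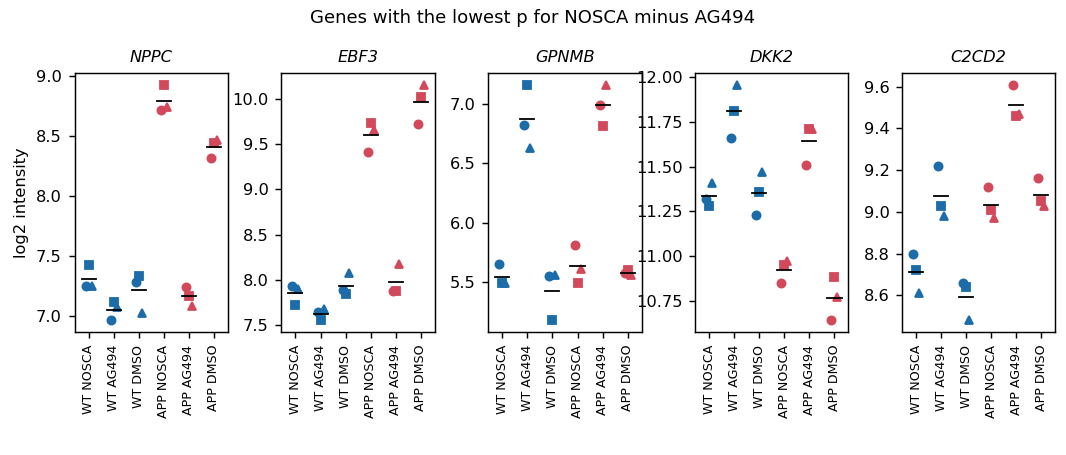
Log2 intensity (y axis) of the 5 genes with the lowest p for NOSCA minus AG494, by group; points are arrays with shapes for the 3 runs, bars are group means, blue is WT and red APP cells. NPPC and EBF3 separate NOSCA from AG494 mainly in APP cells, by 1.64 and 1.62 log2, and GPNMB does so in both genotypes.

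The gene lists divided in the same comparison. Of 35 interferon response genes, 20 were lower with NOSCA than with AG494 and 0 higher, beside 2.49% lower over all genes, and the list median was -0.442. That median was -0.848 in APP cells, with 25 members called lower, and -0.011 in WT cells, with 0 called. Over all genes, in either direction, 5.11% were called in APP cells and 0.0221% in WT cells. The difference between genotypes passed for 2 of the 35 genes. TAP1, a peptide transporter of antigen presentation, was lower by -1.55 ± 0.23 in APP cells and OAS1, an antiviral RNA sensor, by -1.46 ± 0.26 (SE, limma adjusted p 0.0014 and 0.0041). Their WT values were -0.35 ± 0.23 and -0.29 ± 0.26 (SE, limma adjusted p 0.68 and 0.78). With DMSO, TAP1 had 5.65, 5.73 and 5.77 in WT cells and 8.11, 9.22 and 9.13 in APP cells. OAS1 had 6.60, 5.79 and 5.52 in WT cells and 9.03, 9.61 and 9.39 in APP cells with DMSO. The WT levels were toward the low end of the intensities, whose lowest value was 4.143, and the part of these levels in the WT result was not tested. For the NF-kappaB and chemokine list, 7 of 22 genes were lower with NOSCA and 0 higher. IL32, an inflammatory cytokine, was lower by -1.21 ± 0.10 in APP cells and by -0.40 ± 0.10 in WT cells (SE), with a limma adjusted p of 0.037 for the difference between genotypes.

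Pooled over both genotypes, mitotic and histone genes were higher with NOSCA than with AG494. Of 39 mitotic genes 28 were called higher and 0 lower, beside 2.39% higher over all genes, with a median of 0.251. By genotype the median was 0.127 in WT cells with 0 called and 0.380 in APP cells with 31 called higher, and no member passed for the difference between genotypes. These calls, and those of the lists below, stand beside 0.0221% of all genes called in WT cells and 5.11% in APP cells, in either direction. With so few WT calls over all genes, 0 called in a WT list does not set that list apart. KIF20A was above AG494 by 0.53 ± 0.09 in APP cells and by 0.22 ± 0.09 in WT cells (SE, limma adjusted p 0.0029 and 0.46). The lists of histones and of cholesterol genes had 29 of 55 and 7 of 20 members higher and 0 lower. By genotype the histone median was 0.074 in WT cells with 0 called and 0.313 in APP cells with 37 called higher. That of cholesterol genes was 0.119 in WT cells with 0 called and 0.084 in APP cells with 3 called higher. No member of these lists passed for the difference between genotypes. The p53 targets had a median of 0.197 in WT cells and -0.064 in APP cells, and over both genotypes 1 of 26 higher (GADD45A, a DNA damage gene, at 0.40) and 1 lower (PLK2, a kinase, at -0.33). For CDKN1A the difference was 0.10 ± 0.10 (SE, limma adjusted p 0.66), with an interval of -0.11 to 0.30.

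Set beside AG494 minus DMSO, which shares the DMSO arrays and called 2187 genes (12.1%), the common NOSCA values were smaller for most lists. The median of mitotic genes was -0.137 with NOSCA and -0.372 with AG494. That of p53 targets was 0.179 with NOSCA and 0.147 with AG494. With AG494 its medians by run were -0.319, -0.075 and 0.443 in WT cells and 0.281, 0.251 and 0.331 in APP cells. That of cholesterol genes was -0.097 with NOSCA and -0.263 with AG494, and that of interferon genes 0.034 with NOSCA and 0.493 with AG494. INSM1, a neuroendocrine transcription factor, had 8.59, 8.65 and 8.91 in APP cells with NOSCA, 6.61, 6.53 and 7.23 with AG494 and 9.56, 9.51 and 9.59 with DMSO, so that its NOSCA arrays lay between the other groups. NOSCA exceeded AG494 by 1.38 ± 0.13 over both genotypes (SE, limma adjusted p 6.6e-05), and SLC18A2, given above, by 0.64 ± 0.13 (SE, limma adjusted p 0.013).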

How the data were processed

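Log2 intensities of 21 PrimeView arrays were used as deposited; the authors made these log2 values with RMA (package affy, version not given), as the submitters' processing notes say. Of 49372 probe sets, 79 controls, 1832 with several symbols and 2473 not listed in the annotation table were set aside, and the probe set with the highest mean stood for each of 18132 genes. Intensities carry no counts, and no gene was filtered out. limma 3.58.1 in R 4.3.3 fitted NOSCA, genotype and run to 12 arrays (7 residual degrees of freedom), and groups and run for genotype contrasts and for AG494 (18 arrays). Two-sided p-values were Benjamini-Hochberg adjusted over all genes, with a threshold of 0.05; scripts were tested on simulated data. The runs come from title numbers: deviations of 18 same-run pairs correlated at 0.259 to 0.641, and of 36 other pairs at -0.469 to 0.071. Named genes were the 10 lowest p of the common effect, the 5 lowest of the genotype difference and of NOSCA minus AG494, APP and single list members. The comparison, its members and the 34 lists (1111 entries, 1026 measured) were chosen with earlier results of these data known. Promoters are from RefSeq GRCh38.p14, 1 per symbol. Alternatives are in the closing section.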

Additional observations from a re-analysis of the deposited data

Results flagged for a closer look

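In 7 of the genes named above, every WT run moved one way with NOSCA and every APP run the other way, which 1019 genes (5.62%) did over the whole table. The APP response minus the WT response was 1.52 log2 for H2AC25, 0.70 for STK32A, 0.81 for H2AC20, 0.62 for NDUFAB1, -0.51 for ZNF620, -0.17 for C2CD2 and 0.24 for the APP transcript. In the 12-array fit no such difference passed limma's test (adjusted p 0.089 to 0.53), while with all 21 arrays H2AC25 and H2AC20 passed (limma adjusted p 0.011 and 0.025), and 5 of the 7 genes had been named because this difference had a low p.

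Probe sets that have no single gene symbol here (4305, of which 385 or 8.94% had an unadjusted p under 0.05) were tested apart. Tested among themselves with limma, 4 passed for the common effect, and the annotation table does not list them, so they are unnamed here. Probe set 11754629_s_at was higher by 0.91 ± 0.09 log2 (SE, adjusted p 0.00081). It had 9.86, 9.78 and 9.70 in WT cells and 9.70, 9.64 and 9.71 in APP cells with NOSCA, against 9.21, 9.26 and 8.69 in WT cells and 8.64, 8.68 and 8.44 in APP cells with DMSO. Probe set 11735090_s_at was higher by 0.84 ± 0.07 and the other one by 0.67 ± 0.06 (SE, both limma adjusted p 0.00042). Probe set 11746974_a_at was lower by -0.35 ± 0.05 (SE, limma adjusted p 0.043). Adjusted together with the 18132 genes, the 3 higher ones passed at 0.0019 to 0.0041 and the lower one had 0.068. With AG494 the first had 9.91, 9.80 and 9.86 in WT cells and 9.80, 9.82 and 9.97 in APP cells. In all 4 probe sets the AG494 and PALBO arrays differed from DMSO in the same direction as NOSCA. The probe set at 0.67 had 8.17, 8.21 and 8.24 with AG494 in WT cells. It had 8.39, 8.38 and 8.06 there with PALBO and 7.36, 7.51 and 7.37 with DMSO. All compounds share these DMSO arrays, whose part was not tested.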

How the results depend on the processing

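The count of genes for the common effect was 0 without the replicate block, after quantile normalization again, after centring on array medians and at a fold of 1.5. It was 57 with all 21 arrays, 34 with a trended and robust prior (24 genes were called by both), 3 over every probe set, 4 for averaged probe sets, 1 without the dimmest genes, 1 with array weights, and 0 to 2 with arrays left out (2 without APP_NOSCA replicate 2). In WT cells the count of 1 became 0 without the replicate block, over every probe set, without the dim genes and after quantile normalization again, 4 for the mean of probe sets and with array weights, 5 after centring, 58 with the trended prior, 76 with all 21 arrays, and 0 to 7 with arrays left out (7 without WT_DMSO replicate 3). In APP cells it was 5 with all 21 arrays, 3 for the mean of probe sets, 3 with the trended prior, 42 with array weights and 0 to 1 with arrays left out. For the difference between genotypes it was 3, 2, 9 and 1 in the same order, and 0 with any array left out.

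NOSCA minus AG494 called 208 genes without the replicate block, 1638 over every probe set, 1644 with array weights, 53 at 1.5-fold, 4 in WT cells only, 462 to 822 with 1 array left out, and 342, 29 and 224 without run 1, run 2 and run 3. Fewer samples enter the fits that leave out arrays; the cause of the other changes was not tested. No named gene changed sign: 446 values kept their side of the threshold and 35 passed it. Of list medians 270 moved by less than the spread between replicates and 2 by more.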

Other observations

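Some lists showed a NOSCA value in 1 genotype. Of 31 genes of glycolysis and hypoxia, 27 lay below 0 in WT cells with a median of -0.114, and 10 were lower there at an unadjusted p under 0.05 (5.39% of all genes), while the median was -0.004 in APP cells with 0 lower at that level. The WT medians by run were -0.210, -0.096 and -0.054. With AG494, set against the same DMSO arrays, they were -0.080, -0.109 and -0.045. PDK1, a kinase that restrains pyruvate oxidation, stood at -0.39 ± 0.15 over both genotypes and SLC2A1, a glucose transporter, at -0.23 ± 0.09 (SE, limma adjusted p 0.37 and 0.39). The list contains ALDOC, whose WT values are in the report, and the difference between genotypes passed limma's test for none of the 18132 genes.

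Lists for neuronal functions lay near 0. The median was -0.013 for 31 presynaptic genes, 0.007 for 28 postsynaptic genes, 0.038 for 31 ion channel genes and -0.031 for 28 genes of the neuronal cytoskeleton, with 0 members called in each. NPY, a neuropeptide of sympathetic neurons, was higher with NOSCA in 6 of 6 within-run differences, by 0.28 ± 0.06 (SE, limma adjusted p 0.22).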
